A study of Felis catus with 77 samples.

Results

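The genes described here were those whose RNA level differed most from tumor to tumor within cluster C1 of feline fibrosarcoma (FSA). Their typical level in tumor stayed close to that of the normal tissue with the highest level, while the other normal tissues could lie lower. Members were selected on measured values: they are the 100 genes with the largest standard deviation (SD) of log2(normalised count + 1) over the 18 C1 tumors, out of 19587 identifiers in the deposited tables. Each candidate had a median of at least 50 normalised counts in C1, an all-tumor median within 2-fold of the largest normal tissue median, and a median in cluster C3 below 2 times that in C1. These steps left 5898 candidates, so the level in C1, the spread in C1, the tumor against normal medians and the C3 against C1 medians chose the members and are given below as description, without a test. RNA had been sequenced from fixed, paraffin-embedded tissue of domestic cats with FSA, in which tumor (T, 30 libraries), adipose tissue (AT, 16), connective tissue (CT, 11) and skeletal muscle (SM, 20) were cut out by laser-capture microdissection. All tissue came from curative surgery of client-owned animals, and 1 library stands for 1 tissue of 1 cat. Breed, age and sex were not used. The tumors fall into C1 (cats 5, 6, 8, 9, 18 to 26, 29 and 31 to 34), C2 (cats 11 to 17) and C3 (cats 7, 10, 27, 28 and 30). These clusters had themselves been drawn on expression values of the tumors, and C1 as used here, with every tumor outside C2 and C3, holds 1 tumor more than the study's own description of it.

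FSA is a malignant tumor of the fibroblast lineage, which makes the collagen-rich matrix of connective tissue. In cats it grows below the skin and infiltrates the fat, connective tissue and muscle around it, which is why these tissues served as the matched normal tissue. Tumors of 1 diagnosis share genes that set them apart from normal tissue, but each tumor also carries its own expression pattern, set by its lineage state, its mutations, its stroma and its immune cells. A gene with a wide spread can escape a comparison of tumor with a normal tissue of similar median, and appears when the tumors are set side by side. The deposited tables name genes by Ensembl identifier, and the feline gene table used here paired none of them with a symbol. Members are therefore given by identifier, without a role or a sequence, and the labelled tissues were not checked against marker genes.

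Library totals ranged from 847003 to 19099337 counts, and those of the 18 C1 tumors from 5081459 to 14585035. At an equal depth of 847003 counts, the C1 tumors showed 12317 to 13493 genes and the C2 tumors 15189 to 18158. The normal libraries of the C2 cats also stood high, at 13781 to 17440 in AT, 17981 to 18332 in CT and 13512 to 15574 in SM, against 11368 to 15089, 9691 to 13497 and 9595 to 12838 in the other cats. Some normal libraries stood apart in the members. The muscle library of cat 11 had 45 members above 4 times the SM median, the muscle library of cat 7 had 50 members at 3 counts or fewer, and the connective tissue library of cat 21 had 38. These 3 held fewer than 2000000 counts. The muscle library of cat 18 had 39 members at 3 counts or fewer and 42 more than 4-fold below the SM median, the most of any library, at 9571552 counts. The calls between tissues below are also given without libraries under 2000000 counts, without the muscle library of cat 18 and without cats 11 to 17.

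Members varied far more widely between C1 tumors than a typical candidate. Their SD ran from 1.58 to 3.40 with a median of 1.83, against a median of 0.58 over all 5898 candidates. Their C1 medians ran from 50.4 to 2081 normalised counts, with a median of 124. Among the 57 members that had more than 3 counts in every C1 tumor, the highest tumor exceeded the lowest by 45.8-fold to 1988-fold, with a median of 111-fold, on the scale of normalised count + 1. The spread pointed mainly downward. The tumor farthest from the median lay below it for 89 of the 100 members. A tumor more than 4-fold below the C1 median was found for 99 members, a tumor above 4 times the median for 66, and both for 65. When the most extreme tumor of each member was set aside, the median SD was 1.51 and 41 members still reached the SD of the last member. The plot of all members by tumor shows these deviations.

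**Figure D1:**
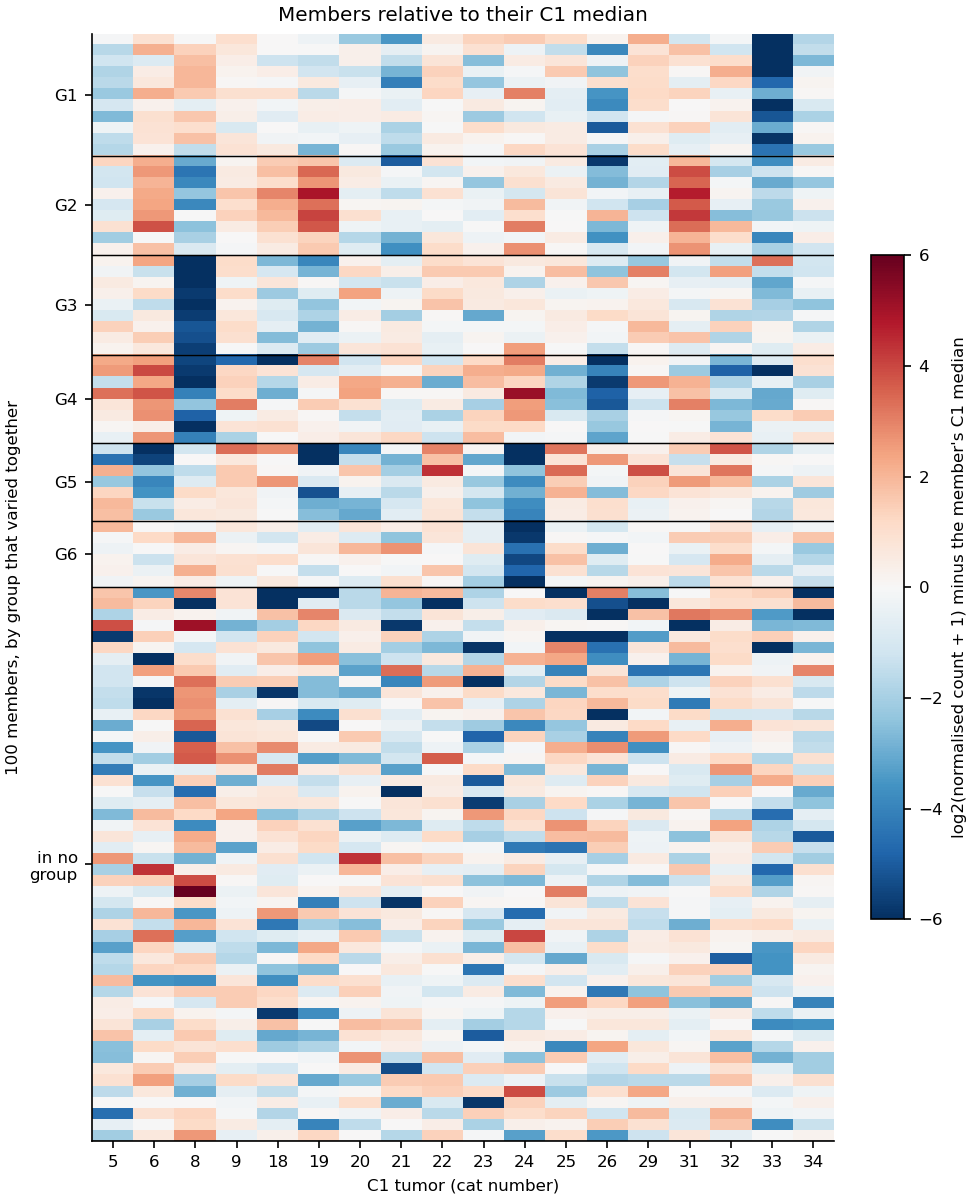
Each row is 1 of the 100 members and each column 1 of the 18 C1 tumors; color gives log2(normalised count + 1) minus the member's C1 median, and black lines separate the groups G1 to G6 of members that varied together and the 50 members in no group. Blocks of low values stand in tumor 33 (G1), tumor 8 (G3 and G4) and tumor 24 (G6), and blocks of high values in tumors 19 and 31 (G2).

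The member with the widest spread, ENSFCAG00000000821 (SD 3.40), lay between 0 and 1198 normalised counts in C1, with a median of 86.9. Tumors 6, 19 and 24 had no read of it, while tumors 32, 9 and 25 were highest, at 1198, 898 and 814. In the same 3 cats the normal tissue did hold the transcript. Cat 6 had 40.4 in AT, 85.7 in CT and 26.6 in SM, cat 19 had 189 in AT and 90.1 in SM, and cat 24 had 86.1 in SM. A count of 0 is limited by depth: 3 counts correspond to 0.912 to 2.62 normalised counts in the C1 tumors, and that floor covers counting error only. In AT it ranged from 38.4 to 349 and in CT from 29.6 to 605, so neither tissue came down to the level of the 3 silent tumors, while 2 of the 20 SM libraries had 3 counts or fewer.

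ENSFCAG00000026567 (SD 3.26) showed the same form, with 1 of its silent tumors, that of cat 19, shared with ENSFCAG00000000821. It ranged from 0 to 514 in C1 with a median of 62.3, and tumors 18, 19, 25 and 34 had no read. Every AT, CT and SM library was above 3 counts, with ranges of 32.2 to 226, 79.4 to 389 and 10.8 to 168. Among the tumors outside C1, those of cats 7 and 10 were near 0, at 0.578 and 0.878, and the C2 tumors lay between 29.4 and 427.

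ENSFCAG00000040826 (SD 3.15) was spread to both sides. It ranged from 1.11 in tumor 18 to 1594 in tumor 24, with a median of 192. Tumors 26, 8 and 9 were also low, at 1.34, 3.16 and 6.38, and tumors 19 and 6 were also above 1000, at 1512 and 1046. AT ranged from 0 to 393, CT from 21.6 to 685 and SM from 0 to 260, so these 3 high tumors exceeded every normal library.

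ENSFCAG00000015482 (SD 3.09) differed from the first 2 in that normal tissue was often silent as well. It ranged from 0 to 240 in C1 with a median of 70.4, and 5 tumors (8, 18, 22, 26 and 29) had 3 counts or fewer. So did 10 of the 16 AT, 2 of the 11 CT and 15 of the 20 SM libraries. In the 7 C2 tumors it lay between 35.4 and 324.

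The threshold of the list divides genes of nearly equal spread. The last 2 members, ENSFCAG00000013222 and ENSFCAG00000053568, had SDs of 1.59 and 1.58, and the first 2 genes outside, ENSFCAG00000027053 and ENSFCAG00000005931, had 1.58 and 1.58. The C1 medians were 163 and 122 inside and 76.9 and 64.5 outside.

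Near silence in single tumors was a common form of the spread. At least 1 C1 tumor had 3 counts or fewer in 43 members, and exactly 1 tumor in 32 of them. Over the 100 members this made 61 of 1800 values, of which 34 were 0. Among the 5798 other candidates, 19 had such a tumor, but a wide SD favors such values, so the contrast follows from the rule. The normal tissue of the same cats did not enter the SD. Of the 61 values, 59 were in cats with a normal library. For 47 of these at least 1 normal library of the cat had more than 3 counts, for 37 every normal library did, and for 12 none did. These shares, 79.7% with at least 1 and 62.7% with every normal library, stood beside 82.8% and 68.8% for the same members in C1 cats whose tumor had more than 3 counts. They stood beside 88.3% and 78.4% for the members above 3 counts in the tumors of the same cats. By tissue, the normal library of the same cat was itself at 3 counts or fewer for 12 of 30 values in AT (40%), 3 of 19 in CT (15.8%) and 11 of 47 in SM (23.4%). The same members were so in 28.1%, 14.9% and 21.9% of the libraries of the other C1 cats, and all members in 15%, 8.14% and 14.6%. In AT, cat 23 had 0 of 6 and cat 26 had 4 of 8 above 3 counts. Cat 18 had 4 of 5, cat 29 had 0 of 1, and in cats 5, 6, 19 and 31 all were above. The AT libraries of cats 23 and 26 held only 1618725 and 1383348 counts. Of all 100 members, 20 and 24 were at 3 counts or fewer in them. In CT and SM, normal tissue of the cat was thus silent about as often as these members were in other cats. The higher share in AT rested on cats 23 and 26, and no test was made. Where the tumor had no read at all, 25 of 32 values had a normal library above 3 counts. Microdissected tissue is a mixture of cells, so fewer cells of a type and less RNA per cell cannot be told apart here or in the results that follow.

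The C1 tumors did not contribute alike. Tumor 8 was both the highest tumor (22 members) and the lowest (23 members) most often. Tumor 33 was lowest for 19 members and highest for 3, with a median deviation of -1.35 log2 units over all members. Tumors 6, 24 and 31 were each highest for 10 members. Tumors 33, 8 and 26 had the most members more than 4-fold below the median, with 34, 33 and 31, and 8 members each at 3 counts or fewer. At the other end, tumors 22 and 9 had 3 and 5 members more than 4-fold below the median. Tumors 8, 33 and 26 held 11598849, 8322581 and 6535334 counts, and tumors 22 and 9 held 10958136 and 14585035. The 3 shallowest tumors, those of cats 23, 19 and 21 with 5081459, 5442776 and 5715348 counts, had 24, 25 and 21 members more than 4-fold below the median, against a median of 17 over the C1 tumors. The association of the members with depth is given at the end. Tumor 24 differed in composition, with 18.1% of its counts on 1 gene, against 1.71% to 7.16% in the other C1 tumors. The counts per tumor are drawn as bars.

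**Figure D2:**
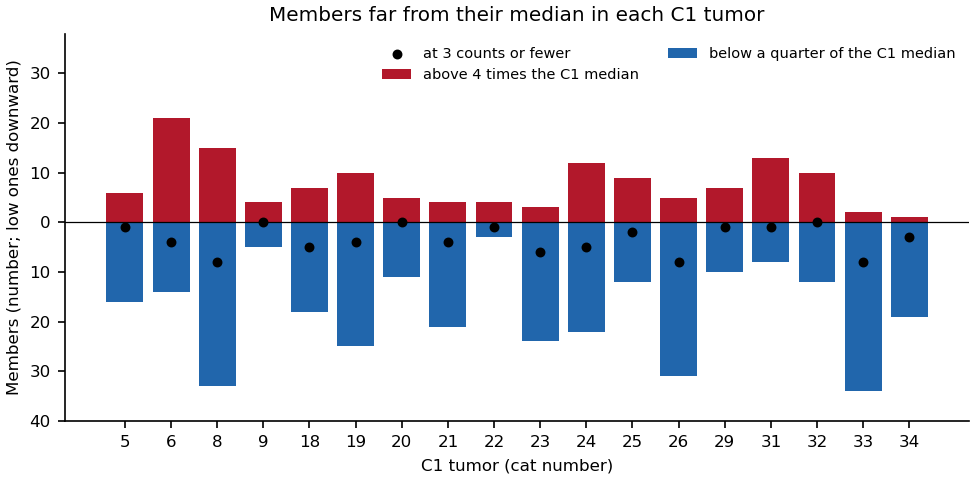
For each of the 18 C1 tumors, red bars give the number of members above 4 times their C1 median, blue bars (downward) the number more than 4-fold below it, and black points the number at 3 counts or fewer. Tumors 8, 26 and 33 have the longest blue bars, at 33, 31 and 34 members, and tumor 6 the longest red bar, at 21.

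Some members moved as blocks. Average linkage on 1 minus Pearson's r over the 18 C1 tumors, divided at a height of 0.5, gave 6 groups of at least 5 members that held 50 members in all. The mean pairwise r was 0.60 to 0.69 within the groups and 0.07 over all members. These groups were drawn on the same values, so their r is no support for them. With Spearman's correlation 4 groups held 26 members, and with complete linkage 3 groups held 18. The forms seen were groups with 1 tumor far below the others, groups with several high and low tumors, and the 50 members in no group.

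In groups G1, G3 and G6, 1 tumor lay far below all others. All 11 members of G1 were more than 4-fold below their median in tumor 33, between 0 and 9.22 normalised counts, with a median deviation of -5.87 log2 units. The 2 members closest to the rest of G1 were ENSFCAG00000030930 and ENSFCAG00000004896. ENSFCAG00000030930 had 1.08 normalised counts in tumor 33, a C1 median of 130 and a highest value of 602 in tumor 32. ENSFCAG00000004896 had 0.542 in tumor 33, a median of 89.0 and a highest value of 300.1 in tumor 8. The muscle of cat 33 held 9 of the 11 members above the level of the tumor, with a median deviation of -0.38 from the SM median, and 4 of the 11 were more than 4-fold below that median. ENSFCAG00000030930 was itself lowest among all SM libraries in that cat, at 6.02.

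All 9 members of G3 were more than 4-fold below their median in tumor 8, between 0 and 23.02, with a median deviation of -5.76. Tumor 19 was the next lowest, at -2.17, with 5 of the 9 members more than 4-fold below. ENSFCAG00000012285 had 9.93 in tumor 8, a C1 median of 592 and a highest value of 3193 in tumor 20. ENSFCAG00000014975 had 23.02 in tumor 8, a median of 846 and a highest value of 3236 in tumor 29. In the same cat all 9 members were above the level of the tumor in both CT and SM, between 36.9 and 433 in CT and between 43.2 and 378 in SM. Their median deviation from the tissue median was 0 in CT and 0.999 in SM, so the low level was seen in the tumor of cat 8 and not in these normal tissues of the cat.

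All 6 members of G6 were more than 4-fold below their median in tumor 24, between 0 and 6.10, with a median deviation of -5.63. ENSFCAG00000000245 had no read in tumor 24, a C1 median of 146 and a highest value of 570 in tumor 5. ENSFCAG00000009297 had 5.22 in tumor 24, a median of 276 and a highest value of 1300.2 in tumor 32. The muscle of cat 24 was above the tumor for all 6, between 4.88 and 385, with a median deviation of -0.15 from the SM median. The muscle of cat 24 thus lay near the other muscle libraries. Values in these 3 cats are plotted by member.

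**Figure D3:**
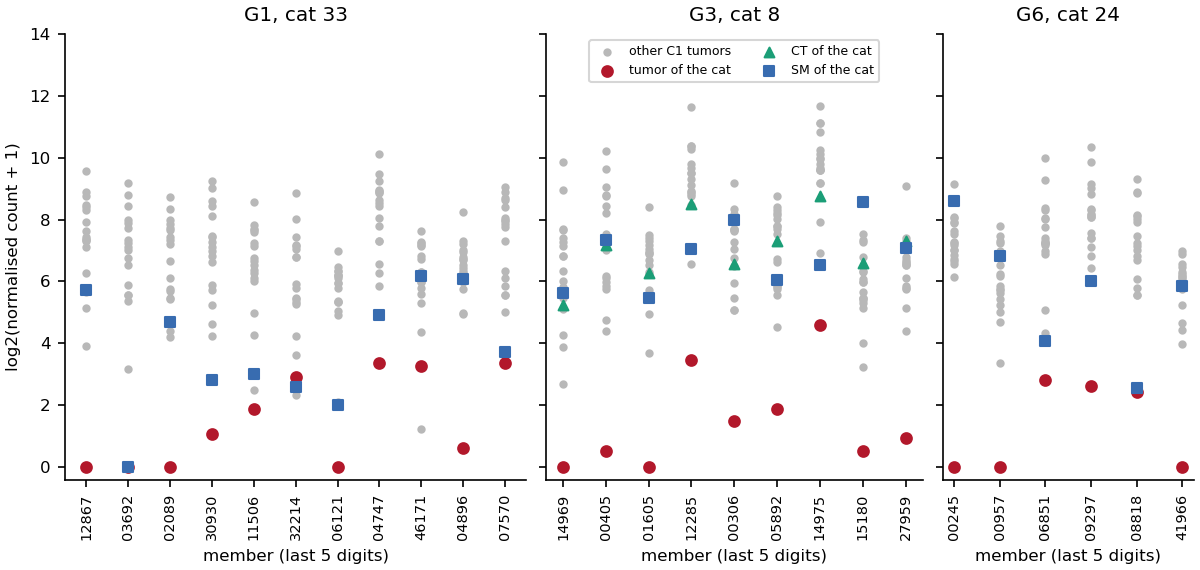
Points give log2(normalised count + 1) of each member of G1, G3 and G6 (last 5 digits of the identifier) in the lowest tumor of the group (red), the other 17 C1 tumors (grey) and the CT (green triangles) and SM (blue squares) of the same cat; cats 33 and 24 have no CT library. For G3 all 9 members lie higher in the CT and SM of cat 8 than in its tumor, and for G1 the muscle of cat 33 overlaps the tumor at the low end, with ENSFCAG00000003692 at 0 in both.

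Groups G2, G4 and G5 differed between several tumors. G2 (9 members) was high in tumors 31, 19 and 6, with median deviations of 3.49, 3.31 and 2.28, and low in tumors 26, 8 and 33, with -2.62, -2.46 and -2.23. ENSFCAG00000035776 ranged from 5.42 in tumor 8 to 1183 in tumor 31 around a median of 92.8. ENSFCAG00000031433 ranged from 4.06 in tumor 8 to 838 in tumor 31 around a median of 73.9. In cats 31, 19 and 6 no normal library of the cat exceeded the tumor for any of the 9 members. The muscle of these cats deviated by 0.45, 0.49 and 0.17 from the SM median and the CT of cats 31 and 6 by 1.18 and -0.15 from the CT median, so no normal tissue of theirs stood as far above its median as the tumors did.

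G4 (8 members) was high in tumors 6 and 24, with median deviations of 2.66 and 2.37, and low in tumors 8, 26 and 32, with -5.18, -4.44 and -2.49. ENSFCAG00000004808 had the largest absolute range of the named members. It lay at 11.4 in tumor 26 and 20.8 in tumor 8, and at 4835 in tumor 6 and 12883 in tumor 24, around a median of 358. ENSFCAG00000012767 ranged from 5.87 in tumor 8 to 5903 in tumor 29 around a median of 999.6. The muscle of cat 24 held ENSFCAG00000004808 at 215 and that of cat 8 at 227, close to the SM median of 246, although their tumors stood at opposite ends. Over all 8 members, the CT of cat 8 deviated by -1.46 from the CT median and its SM by 0.69 from the SM median. For cat 32 these deviations were -0.94 and 0.98, and the AT of cat 26 deviated by 0.52. In the high cats 6 and 24, SM deviated by -1.03 and -0.07, and in cat 6 AT deviated by -1.23 and CT by 0.46.

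G5 (7 members) was low in tumors 24, 6 and 19, with median deviations of -3.75, -3.59 and -2.91. Its 2 closest members were ENSFCAG00000000821, described above, and ENSFCAG00000053568, which ranged from 6.97 in tumor 24 to 427 in tumor 5 around a median of 122. In cat 19, 7 of 7 members were higher in AT than in the tumor and 5 of 7 in SM. In cat 6, 7 of 7 were higher in CT and 5 of 7 in each of AT and SM, and in cat 24, 5 of 7 were higher in SM.

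In libraries that had no part in drawing the groups, their members varied together less closely. Over the 12 C2 and C3 tumors the mean pairwise r was 0.27 in G4, 0.22 in G3, 0.20 in G1, 0.14 in G2, 0.12 in G5 and 0.01 in G6, beside 0.10 over all members. Over the 16 AT libraries it was 0.09 to 0.16, beside 0.12. Over the 11 CT libraries it was -0.05 to 0.38, with G2 highest, beside 0.10, and over the 20 SM libraries 0.03 to 0.27, beside 0.20. Libraries in each of these sets differ in depth and composition, and no test was made. Some groups had a low tumor outside C1 as well. G1 was 4.59 log2 units below its C1 median in the C3 tumor of cat 7, with 8 of 11 members more than 4-fold below, and G4 was 3.08 below in the C2 tumor of cat 14, with 6 of 8.

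A single high tumor set the spread less often than a single low one. The highest C1 tumor exceeded the next by over 4-fold in 3 members, against 37 members whose lowest tumor lay more than 4-fold below the next, on the scale of normalised count + 1. Tumor 8 held 2 of the 3 high values and 11 of the 37 low values, tumor 33 held 8 low values and tumor 24 held 5. The clearest high value was ENSFCAG00000011205, at 11701 normalised counts in tumor 8. The next tumor was that of cat 25, at 1111, and the other 16 C1 tumors lay between 36.3 and 274. CT and SM of cat 8 had 178 and 144, beside tissue medians of 230 and 157. The excess was thus seen in the tumor of the cat and in neither normal tissue. The other 2, named after their values were seen, were ENSFCAG00000012339, at 872 in tumor 8 and 155 in the next, and ENSFCAG00000037370, at 2781 in tumor 6 and 542 in the next. Normal tissue of the same cats had 65.5 (CT) and 1.63 (SM) for the former and 54.3 (AT), 345 (CT) and 38.1 (SM) for the latter.

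The spread was also wide in tumors the rule had not used for it, although in C2 this depended on the background chosen. Of the 87 members with a median of at least 50 in C2, 33 were in the top 10% of SD among all genes with such a median. By definition 10% of those genes are. In C3 it was 41 of 65 (10% of all), in AT 20 of 69 (10%), in CT 18 of 82 (10%) and in SM 14 of 41 (10%). The rule used the C3 median, although not its spread. Member medians of the SD were 1.27, 1.23, 0.99, 1.15 and 1.18 in C2, C3, AT, CT and SM, against 0.70, 0.52, 0.65, 0.68 and 0.65 over all genes. In C3 the member median lay above the level of the top 10% (1.05), and single members reached an SD of 4.10. Only members with a median of at least 50 in a group could be counted, and low genes have wider counting error. With genes of a median of at least 10 as the background, 16 of 100 members were in the top 10% in C2 and 28 of 83 in SM.

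**Figure D4:**
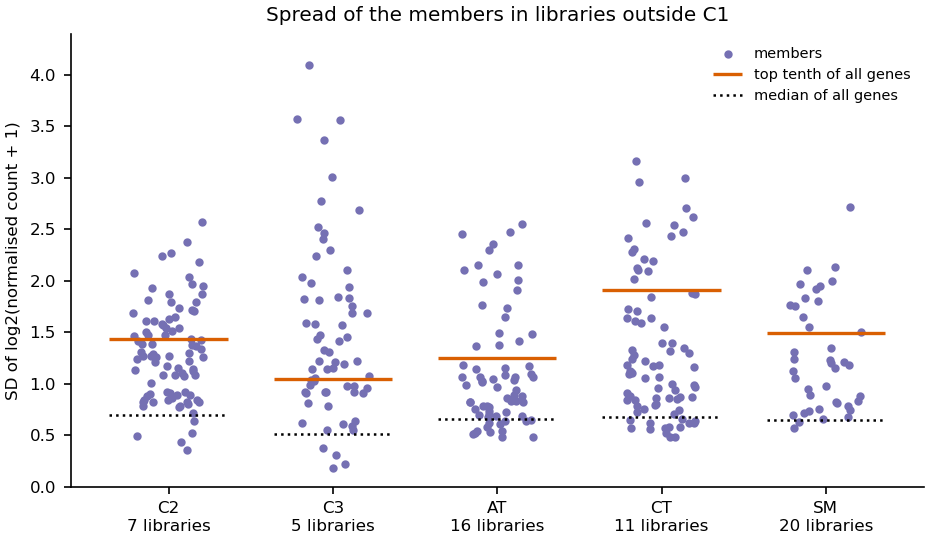
Each point is the SD of log2(normalised count + 1) of 1 member over the libraries of C2, C3, AT, CT or SM, for members with a median of at least 50 in that group. The orange line marks the top 10% of SD and the dotted line the median SD of all genes that reach this minimum. In C3, 41 of 65 members lie on or above the orange line, and in CT 18 of 82.

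Values near silence were also seen outside C1. In C3, 26 of 500 member values were at 3 counts or fewer (5.20%), against 0.0724% for the other candidates. The tumor of cat 7 held 14 of the 26 and that of cat 10 held 9, at totals of 6655671 and 8488414 counts, while the tumor of cat 27 held none. In C2 the share was 2.29% against 0.599%, and 15 of its 16 values were in the tumors of cats 11 (9) and 12 (6), which had 957697 and 1989902 counts. The shares were 9.94% against 1.24% in AT, 5.55% against 1.68% in CT and 15.05% against 2.62% in SM. Members had lower normal tissue medians than the other candidates, with medians of 71.8, 101.3 and 36.5 in AT, CT and SM against 178, 189 and 159, and the part of level in these shares was not tested.

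The normal tissues were compared with one another to ask where the members are expressed outside the tumor. The rule had used the largest of the 3 normal medians, but not which tissue held it. That tissue was CT for 55 members, AT for 35 and SM for 10, while among the other candidates it was CT for 41.7%, AT for 24.3% and SM for 33.99%. The rule asked for a tumor median within 2-fold of that largest median. No normal median could therefore exceed 2 times the tumor median, and a tissue outside the 2-fold range lay below that range. A member inside the range in only 1 of 2 compared tissues had to have a higher median there. For such members values are given without a test. For the same reason the counts of members called are a description, shown beside all genes and beside the other candidates, which met the same condition.

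In AT against SM, 96 members passed the filter on low counts. Of these, 35 were higher in AT and 7 lower (edgeR's quasi-likelihood test, Benjamini-Hochberg adjusted p under 0.05 over all genes and log2 fold change beyond 1), against 21.1% and 13.8% of all 12053 genes tested and 16.7% and 3.47% of the other candidates. That is 36.5% and 7.29% of the members tested. Of the members called, 5 of the higher and 3 of the lower had met the rule only through the tissue in which they were higher. These counts leave out called members inside the range in 1 of the 2 tissues and also in CT, whose direction the rule bound as well. Among the 23 members whose tumor median was within 2-fold of both tissues, 5 were higher and 1 lower, against 4.27% and 3.39% of such candidates. The median log2 fold change was 0.91 over the members, 0.23 over all genes and 0.20 over the other candidates. Without factors for composition the median of all genes moved to 1.36, and the split of the members moved to 80 higher and 2 lower, with 62.5% and 4.73% of all genes called. Without libraries under 2000000 counts it was 29 higher and 8 lower (16.9% and 15.5% of all genes), without the muscle library of cat 18 it was 33 and 6 (20.5% and 13.7%), and without cats 11 to 17 it was 30 and 9 (19.3% and 15.4%).

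ENSFCAG00000012285 was the clearest, at 317 to 1143 normalised counts in AT and 3.72 to 230 in SM. The tissues did not overlap, and the log2 fold change was 2.77 ± 0.32 (SE). ENSFCAG00000014975, the other closest member of G3, was at 196 to 731 in AT and 1.24 to 234 in SM. The ranges overlapped in part, and the log2 fold change was 2.05 ± 0.31. Both members had a tumor median within 2-fold of AT and of CT but not of SM, so no p is given. In the opposite direction, ENSFCAG00000041966 had medians of 24.7 in AT and 57.3 in SM and a log2 fold change of -1.20 ± 0.33. Its tumor median was within 2-fold of SM and not of AT, so no p is given. With the cat as a block it was not called. ENSFCAG00000000245 had medians of 47.0 in AT and 322 in SM, with overlapping ranges of 0 to 272 and 97.3 to 945. It met the rule only through SM.

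In CT against SM, 99 members were tested, and 54 were higher in CT and 3 lower (54.5% and 3.03%). This stood against 23.8% and 15.3% of all 12443 genes and 19.7% and 5.82% of the other candidates. Of the members called, 18 of the higher and 1 of the lower had met the rule only through the tissue in which they were higher. Called members inside the range in 1 of the 2 tissues and also in AT, whose direction was bound too, are not counted there. Among the 27 members with a tumor median within 2-fold of both tissues, 6 were higher and 1 lower, against 5.53% and 5.91% of such candidates. Median log2 fold changes were 1.38 over the members, 0.30 over all genes and 0.23 over the other candidates. Without factors for composition the median of all genes was 1.504, with 87 members higher and 0 lower (64.5% and 4.88% of all genes). Without libraries under 2000000 counts, 47 were higher and 6 lower (20.7% and 17.4%), without the muscle library of cat 18 it was 53 and 4 (23.2% and 15.1%), and without cats 11 to 17 it was 44 and 5 (20.1% and 19.1%). With the cat as a block it was 38 and 4 (19.3% and 14.5%), at a median log2 fold change of 0.95 over the members.

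ENSFCAG00000004747 lay between 182 and 887 in CT and between 5.50 and 240 in SM, so the ranges overlapped at their ends. ENSFCAG00000012318 had a median of 62.1 in CT and of 0 in SM, where 15 of 20 libraries had 3 counts or fewer. Both met the rule only through CT. Lower in CT was ENSFCAG00000004808, at medians of 101.9 against 246. Its log2 fold change of -1.39 ± 0.36 fell to -0.33 without factors for composition. The tumor median of this member was within 2-fold of SM and not of CT, so no p is given. ENSFCAG00000000245, which met the rule only through SM, had medians of 69.98 in CT and 322 in SM. The third was ENSFCAG00000015180 of G3 (-1.40 ± 0.37, edgeR adjusted p = 0.0018), named after its values were seen.

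AT and CT differed in fewer members. Of the 100 tested, 3 were higher in AT and 10 lower, against 4.32% and 2.87% of all 12491 genes and 0.897% and 1.501% of the other candidates. Of the members called, 1 of the higher and 6 of the lower had met the rule only through the tissue in which they were higher. Any called member inside the range in 1 of the 2 tissues and also in SM is not counted there. Among the 58 members with a tumor median within 2-fold of both tissues, 1 was higher and 3 lower, against 0.622% and 0.642% of such candidates. The median log2 fold change was -0.42 over the members and -0.02 over all genes. Without libraries under 2000000 counts it was 2 higher and 11 lower (4.76% and 3.98% of all genes), and without cats 11 to 17 it was 3 and 12 (4.89% and 3.66%). With the cat as a block it was 2 higher (ENSFCAG00000012767 and ENSFCAG00000050268) and 2 lower (ENSFCAG00000030503 and ENSFCAG00000011506), against 1.88% and 0.729% of all genes.

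ENSFCAG00000030503 separated the tissues without overlap, at 0 to 87.5 in AT and 243 to 1007 in CT. In SM it had a median of 5.87, and in the C1 tumors it ranged from 16.2 to 1616. ENSFCAG00000004747 was at medians of 58.7 in AT and 369 in CT. Both met the rule only through CT. ENSFCAG00000004808 was higher in AT, at medians of 335 against 101.9 and a log2 fold change of 1.84 ± 0.34. Its tumor median was within 2-fold of AT and not of CT, so no p is given. With the cat as a block it was not called. ENSFCAG00000040470 followed at medians of 220 against 126 (1.06 ± 0.32, edgeR adjusted p = 0.026, and 0.39 with the block). The third was ENSFCAG00000012767, named after its values were seen, which met the rule only through AT and had medians of 507 in AT and 134 in CT. All 3 comparisons share libraries with one another.

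**Figure D5:**
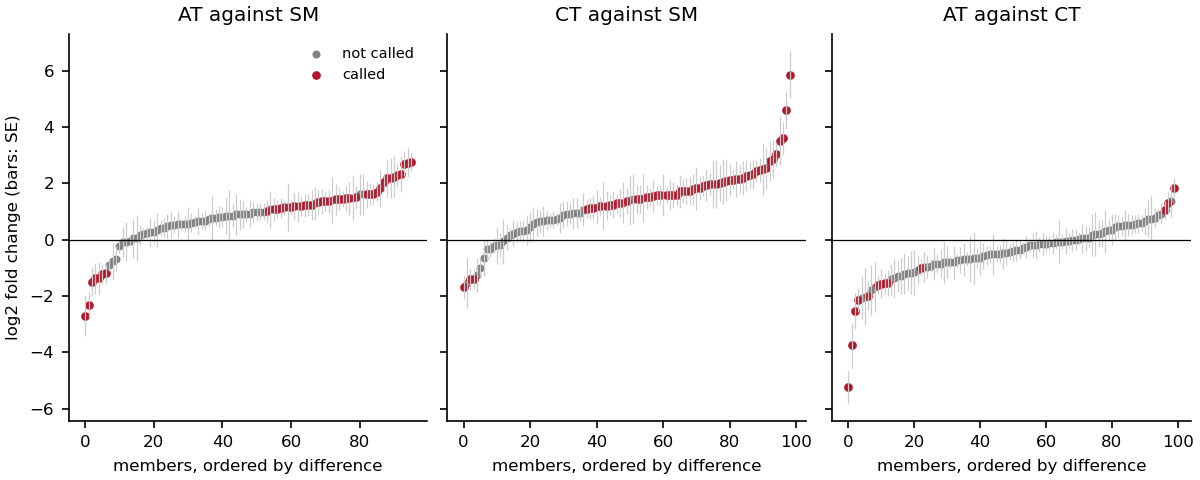
Log2 fold changes of the members tested, ordered within each panel, for AT against SM (96 members), CT against SM (99) and AT against CT (100); bars give the SE, and red points passed an edgeR adjusted p of 0.05 and a log2 fold change beyond 1. Red points lie mostly above 0 in the first 2 panels (35 and 54 members) and mostly below 0 in the third (10 members).

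Matched normal tissue allows the question of whether a member's level in a tumor follows the cat. Across C1 cats, the correlation of a member's level between tumor and normal tissue had a median of 0.02 for AT (57 members, 8 cats), 0.10 for CT (71 members, 7 cats) and 0.11 for SM (41 members, 14 cats). Over all genes that met the same minimum level the medians were 0.10, 0.08 and 0.09. The members were not matched to these genes in level. An r above 0.5 was seen for 15.8%, 18.3% and 9.76% of the members and for 15.7%, 18.1% and 7.56% of all genes. The members thus lay close to the background in all 3 tissues.

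In a fit of cat and tissue over T and normal tissue of 16 C1 cats (45 libraries), edgeR's quasi-likelihood test called 3 of 100 members at an adjusted p under 0.05, against 0.667% of all 14247 genes. This fit includes the C1 tumor values whose spread chose the members, so the count is a description and no p is given. It called 2 members with robust dispersion estimates, 0 without libraries of under 2000000 counts, 0 with T and SM only and 1 without SM (0.498%, 0.267%, 0.105% and 0.128% of all genes). DESeq2 called 16 members and 10.7% of all genes. With all cats, edgeR called 28 members and 34.97% of all genes, so the members were below the background there. ENSFCAG00000011205 was among the 3, with its high value in tumor 8, and was not called without that library. ENSFCAG00000007936 ranged from 0.452 in tumor 34 to 1593 in tumor 31 around a C1 median of 176. Its CT was highest in the same cat 31, at 244, but 12 of 20 SM libraries had 3 counts or fewer. The third was ENSFCAG00000050268.

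When the tumors were left out, 1 of 99 members differed between 10 cats (23 libraries, 11 residual degrees of freedom), against 0.9% of all 12888 genes. At an unadjusted p under 0.05 it was 19 members (19.2%), against 12.3% of all genes. DESeq2 called 16 members and 9.63% of all genes. The 1 member was ENSFCAG00000050268 (edgeR adjusted p = 0.0020), which was called in each of the 8 alternatives as well, with adjusted p from 2.1e-19 (DESeq2) to 0.016. Its normal tissues were high in cats 18, 19 and 23, with 951, 954 and 703 in AT and 3369, 1676 and 1585 in SM. They were low in cats 31, 29 and 22: cat 31 had 66.5 in AT, 6.58 in CT and 9.02 in SM, cat 29 had 23.8, 13.05 and 88.4, and cat 22 had 0 in CT and 24.4 in SM. These cats were picked after their values were seen, so the gap between them in normal tissue follows from the picking. The tumors of the high cats 18, 19 and 23 had 732, 868 and 2362, and those of the low cats 31, 29 and 22 had 26.02, 24.5 and 171. The 3 highest C1 tumors were those of cats 21, 34 and 6. Tumor 21 had 5568 beside 1361 in CT, tumor 34 had 4198 beside 7.59 in SM, and tumor 6 had 2996 beside 218 in AT, 70.6 in CT and 755 in SM. High tumors thus stood beside both high and low normal tissue.

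Depth and library complexity were set against the members within C1. The tumor values are those whose spread chose the members, so these counts are a description. Of the 92 members that passed the filter, 0 were associated with the total count in edgeR's quasi-likelihood test, against 0.00927% (higher with depth) and 0% (lower) of all 10790 genes. DESeq2 called 0 of 100, against 0.225% and 0.0477% of all genes. At an unadjusted p under 0.05, edgeR gave 10 members higher in deeper libraries and 0 lower, against 4.39% and 4.75% of all genes. For the number of genes seen at equal depth, edgeR called 0 of 92 (0% of all genes in each direction) and DESeq2 0 of 100 (0.104% and 0.013%). At an unadjusted p under 0.05, edgeR gave 4 higher and 5 lower, against 2.37% and 3.45% of all genes.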

How the data were processed

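RNA was sequenced in 77 libraries. Per the file headers, the values the authors deposited are matched counts for each Ensembl gene of 1 library, whole numbers that were not normalised. The paper's methods name Trimmomatic and Kallisto with the feline Ensembl annotation, while the submitters' processing notes name STAR and featureCounts, and this was not resolved. Tissue and cat came from the titles. For cat 5, 1 library has AT in its title and tumor as its source, and it was used as AT.

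Counts were divided by median-of-ratios size factors from the 6527 genes with a count in every library. The members and lists were chosen with earlier results of these data known. Named members were the 4 with the largest SD, the last 2 inside and the first 2 outside, the 2 with the highest mean r to the rest of each group, the 2 called members with the smallest adjusted p in each direction of each tissue comparison and the 2 with the smallest adjusted p in each test of the cat. No p is given where the rule had fixed a member's direction. Gene and marker lists needed symbols and were not tested.

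Tests used edgeR 4.0.16 (limma 3.58.1, R 4.3.3) quasi-likelihood fits with TMM factors, filterByExpr and Benjamini-Hochberg adjustment over all genes, and DESeq2 1.42.0 as an alternative. They were tested on simulated data, where edgeR called genes of wide spread that had no difference between cats, so robust dispersion estimates were added. Same-numbered libraries come from the same cat, and their deviations from the tissue means correlated at medians of 0.168 (AT and SM, 10 cats), 0.0819 (CT and SM, 8 cats) and 0.319 (AT and CT, 5 cats), so the cat was used as a block in an alternative. Other alternatives changed the scaling, the filter on low counts, the pseudocount, the spread measure and the libraries. Values near 0 are limited by depth, at a floor of 3 counts.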

Additional observations from a re-analysis of the deposited data

How the results depend on the processing

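The list of members depended on the measure of spread. With the median absolute deviation, 60 of the 100 members kept their place, and without the tumors of cats 8, 24 and 33, a setting chosen after seeing the data, 61. With a C1 median of at least 200 the number was fixed at 20, since that many members reach this level and no other gene could displace them. Leaving out single C1 tumors kept 77 to 89 members, fewest without tumor 8 or 24, and gave 5 to 8 groups with 40 to 58 members. Complete linkage gave 3 groups with 18 members, and Spearman's correlation grouped 26. Members in the top 10% of SD were 16 in C2 and 28 in SM with a median of at least 10 as background, and 22 in SM with log2(normalised count + 10). Without composition factors, 80 members were higher and 2 lower in AT against SM (62.5% and 4.73% of all genes), and 87 and 0 in CT against SM (64.5% and 4.88%). Members lower in CT than in SM were 6 without libraries under 2000000 counts and 5 without cats 11 to 17 (17.4% and 19.1% of all genes). With the cat as a replicate block, AT against SM gave 28 higher and 7 lower (19.4% and 14.3% of all genes), CT against SM 38 and 4 (19.3% and 14.5%), and AT against CT 2 and 2 (1.88% and 0.729%).

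In the test of the cat over T and normal tissue, 28 members were called with all cats (34.97% of all genes), 16 with DESeq2 (10.7%), 1 without SM (0.128%), 0 with T and SM only (0.105%), 0 without libraries under 2000000 counts (0.267%), and 2 without tumor 8 (0.488%). In normal tissue alone it was 16 with DESeq2 (9.63%), 7 with all cats (5.6%) and 4 without the filter on low counts (2.13%). Robust dispersion estimates and the fits without tumor 8 or the muscle library of cat 18 were chosen after seeing the data. The cause of these shifts was not tested. No member was called for depth or for genes at equal depth in any alternative run. Library totals limit the low values, and members at 3 counts or fewer in libraries under 2000000 counts may be expressed below the floor.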
